A study of Mus musculus with 7 samples.

Results

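The contractile apparatus of smooth muscle was followed through single-cell RNA libraries of mouse aorta as a list of 31 genes, all of which are among the 31253 genes of the deposited matrices. The list was taken as given: the actins Acta2 and Actg2, the myosin chains Myh11, Myl6 and Myl9, the kinases Mylk and Mylk4, the myosin phosphatase parts Ppp1r12a, Ppp1r12b and Ppp1r14a, the thin filament proteins Tagln, Cnn1, Smtn, Lmod1, Tpm1, Tpm2 and Cald1, the linker proteins Synpo2, Synm, Des, Csrp1, Vcl, Flna, Actn1, Tln1, Pdlim3, Pdlim7 and Ldb3, the transcription regulators Myocd and Srf, and Sh3bgr. The tested libraries came from aortas of Slc38a2△EC mice, in which the amino acid transporter gene Slc38a2 was deleted in endothelial cells (knockout 1 to 4), and the controls from Slc38a2flox/flox mice (flox 1 to 3). Both genotypes were fed high salt over 3 weeks, and the same stretch of aorta was taken from each. The promoter that drives the Cre recombinase, the age of the animals and whether each library is 1 animal are not stated in the labels, so p-values measure the spread between libraries, which may be technical.

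Smooth muscle cells shorten when calcium-calmodulin activates myosin light chain kinase, which phosphorylates the regulatory light chain and lets smooth muscle myosin pull on actin filaments. Myosin phosphatase reverses the step, and RhoA and its kinases slow the phosphatase. Serum response factor (Srf) with its cofactor myocardin (Myocd) switches on many of these genes through CArG boxes, short DNA elements in their regulatory regions. In the aorta these proteins are the hallmark of medial smooth muscle cells, and their transcripts are among the most abundant of that cell type, so they are also a usual component of the free RNA that reaches droplets or wells of other cells.

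CArG boxes were looked for in the RefSeq promoters of build GRCm38.p6, 250 bases before to 50 bases after each gene's start. The motif was CC, 6 bases that are each A or T, and GG, which reads the same way on both strands. Of the 31 members 26 have an entry, and Actg2, Tagln, Myh11, Myocd and Sh3bgr have none. A perfect match was present in 5 of the 26, namely Myl9, Myl6, Vcl, Ldb3 and Srf, against 535 of all 32851 promoters (1.63%). With 1 mismatch allowed, 12 of the 26 members had a match, against 21.1% of all promoters. The 26 members have 31 promoters, and a member counted if any of its promoters matched, whereas the background counts each promoter. The shares are therefore not strictly alike. The 250 bases before the start are printed for 4 members that later results turn on: Acta2 for its level and its spread into other cells, Myl9 for the endothelial comparison, Vcl for the low-count barcodes, and Srf as the factor itself. Capitals mark the perfect matches in Myl9, Vcl and Srf and the matches with 1 mismatch in Acta2, where CCCTATATGG begins 84 bases before the start and CCTTGTTTGG 34 bases before it.
Acta2, chr19:34255374-34255623, minus strand: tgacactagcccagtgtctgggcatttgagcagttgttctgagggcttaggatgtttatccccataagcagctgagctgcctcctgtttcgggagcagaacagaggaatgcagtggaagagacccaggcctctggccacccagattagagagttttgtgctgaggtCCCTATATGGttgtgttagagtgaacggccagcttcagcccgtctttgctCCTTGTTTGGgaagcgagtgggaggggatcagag
Myl9, chr2:156775214-156775463, plus strand: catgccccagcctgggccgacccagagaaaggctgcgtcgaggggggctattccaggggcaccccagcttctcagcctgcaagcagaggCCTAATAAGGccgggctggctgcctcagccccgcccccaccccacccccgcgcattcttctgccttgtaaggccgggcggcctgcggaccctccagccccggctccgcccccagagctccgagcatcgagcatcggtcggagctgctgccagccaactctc
Vcl, chr14:20929148-20929397, plus strand: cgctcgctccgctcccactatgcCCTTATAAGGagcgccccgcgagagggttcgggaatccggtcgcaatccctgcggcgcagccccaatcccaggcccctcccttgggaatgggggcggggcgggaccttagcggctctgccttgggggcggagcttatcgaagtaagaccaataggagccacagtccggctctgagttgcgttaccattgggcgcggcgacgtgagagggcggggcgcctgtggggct
Srf, chr17:46556163-46556412, minus strand: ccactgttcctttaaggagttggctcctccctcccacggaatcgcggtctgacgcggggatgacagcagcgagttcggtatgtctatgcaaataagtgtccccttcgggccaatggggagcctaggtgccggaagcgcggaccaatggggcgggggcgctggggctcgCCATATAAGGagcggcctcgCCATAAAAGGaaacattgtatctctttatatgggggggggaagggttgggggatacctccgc
The Srf promoter held 2 perfect boxes 82 and 62 bases before its start, Myl9 had 1 at 161 bases and Vcl 1 at 227 bases. A match describes these letters and is not a measured binding site.

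The libraries held 6167 to 13792 barcodes and 22646246 to 73102988 UMIs (unique molecular identifiers, each standing for 1 captured RNA molecule), and 67477 barcodes were kept. Cells were classed by marker genes that include none of the 31 members, which gave 18964 smooth muscle cells, 35831 fibroblasts, 4381 macrophages and 1447 endothelial cells. The labels name goblet cells, but 0 of 67477 kept barcodes carried at least 3 of 7 goblet cell markers, which allows a share of up to 0.00445%. Any pair of libraries shared 68 to 218 barcode sequences, at most 1.79% of the smaller library. Knockout 4 stood apart, with 361 smooth muscle cells, 5.01% of its kept cells, against 21.6% to 43.0% in the other libraries, and the effect of leaving it out is given with the results it changed. Levels are given as CPM, a gene's UMI count scaled to a fixed total of UMIs in the cell class of that library. Slc38a2 in endothelial cells reached 199, 293, 342 and 287 CPM in knockout 1 to 4, against 451, 445 and 339 in flox 1 to 3. The groups overlapped slightly, and the difference (log2 fold change −0.48, SE 0.23) had an adjusted p of 0.757 in edgeR's quasi-likelihood test. The deleted exons are not stated in the labels, and a 3′ tag outside them would not check the label.

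In smooth muscle cells the 31 genes together took 5.44% to 7.17% of all UMIs, with a median of 5.91% over the 7 libraries. The corresponding median was 0.428% in endothelial cells, 0.288% in fibroblasts and 0.206% in macrophages, with highest values of 0.550%, 0.434% and 0.350%. Since no member had been used to class the cells, the smooth muscle label stands on other genes than the ones described here. Levels are not corrected for transcript length, so they are compared between cells and libraries but not between genes.

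Acta2, which encodes smooth muscle alpha-actin, stood at 16525, 12674, 10775 and 11665 CPM in smooth muscle of knockout 1 to 4, against 13372, 10221 and 12050 in flox 1 to 3. Tagln, which encodes the actin-binding protein transgelin, had 8916, 7292, 7609 and 6749 CPM in the knockouts, against 6471, 6837 and 7694 in the flox controls. Myh11, the smooth muscle myosin heavy chain, had 4568, 4303, 4520 and 3484 CPM in the knockouts, against 4932, 4630 and 3495 in the flox controls. For all 3 genes the genotypes overlapped, and knockout 1 was highest for Acta2 and Tagln and flox 1 for Myh11.

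The regulatory light chain Myl9 had 3126, 2703, 2584 and 2632 CPM in smooth muscle of the knockouts, against 2830, 2492 and 3095 in the flox controls. Its kinase Mylk had 2107, 2009, 1973 and 1519 CPM in the knockouts, against 2445, 2358 and 1792 in the flox controls. Both genes overlapped between genotypes, and Mylk was lowest in knockout 4. Calponin (Cnn1) had 898, 730, 643 and 759 CPM in the knockouts, against 767, 841 and 905 in the flox controls. Leiomodin (Lmod1), which nucleates actin filaments, had 639, 623, 510 and 449 CPM in the knockouts, against 869, 858 and 558 in the flox controls. Synaptopodin 2 (Synpo2) had 1204, 1222, 1283 and 1009 CPM in the knockouts, against 1413, 1652 and 1004 in the flox controls. Each of these genes overlapped between genotypes, and Lmod1 varied most among them, with a coefficient of variation of 25.4% over the 7 libraries.

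The members differed in how evenly the libraries expressed them. Pdlim3, a PDZ and LIM protein of the actinin-anchored cytoskeleton, was the most even, at 291 to 340 CPM and a coefficient of variation of 5.13%. Des, which encodes the intermediate filament protein desmin, was the least even, at 51.5%, with 92.5, 36.1, 25.7 and 20.4 CPM in the knockouts, against 63.4, 44.4 and 52.9 in the flox controls. Myocd had 131, 124, 124 and 61.9 CPM in the knockouts, against 183, 184 and 103 in the flox controls. Srf was even, with 15.4, 16.0, 16.0 and 12.5 CPM in the knockouts, against 14.9, 16.3 and 14.5 in the flox controls. Knockout 4 held the lowest smooth muscle value of 17 of the 31 members, and knockout 1 the highest of 15.

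**Figure D1:**
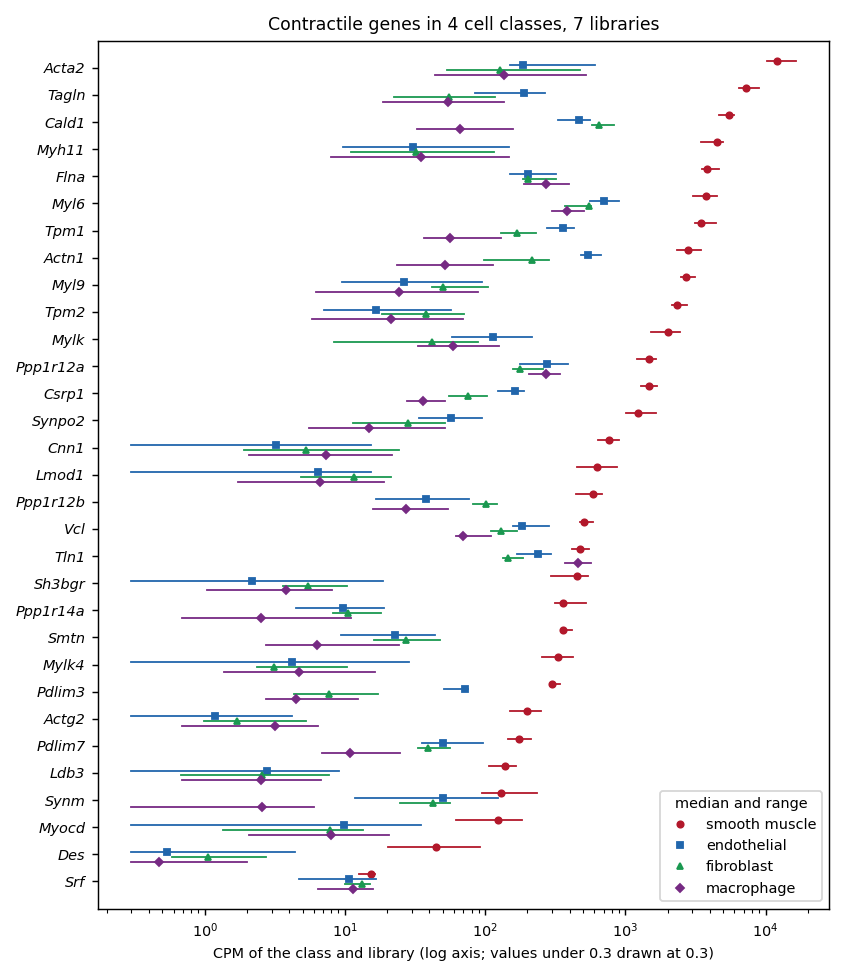
Level of each of the 31 members (rows) in smooth muscle, endothelial, fibroblast and macrophage cells, in CPM on a log axis; points are medians and lines the range over 7 libraries, values under 0.3 are drawn at 0.3 and rows are ordered by smooth muscle level for layout only. Acta2 lies between 10221 and 16525 in smooth muscle and at 609 or below elsewhere, while Tln1 in macrophages (370 to 569) meets its smooth muscle values (416 to 554).

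Outside smooth muscle, the most smooth muscle-restricted members were present at about 1% of their smooth muscle level, and that trace differed between libraries far more than the smooth muscle level did. In fibroblasts Acta2 had 127, 82.4, 136 and 53.6 CPM in knockout 1 to 4, against 477, 64.2 and 204 in flox 1 to 3. In macrophages it had 137, 103, 140 and 43.7 CPM in the knockouts, against 526, 75.1 and 148 in the flox controls. In endothelial cells it had 156, 151, 302 and 177 CPM in the knockouts, against 609, 324 and 185 in the flox controls. Flox 1 was highest and, in fibroblasts and macrophages, knockout 4 lowest. The same libraries held the extremes for most members: flox 1 was highest for 24 of 31 in fibroblasts and 25 of 31 in macrophages, and knockout 4 lowest for 25 and 22.

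As a share of the smooth muscle level of the same library, Myh11 had a median of 0.707% in fibroblasts, 0.994% in macrophages and 0.664% in endothelial cells. Acta2 had 0.767%, 0.827% and 1.54% in the same order of cell classes, and Tagln 0.621%, 0.704% and 2.56%. The 20 smooth muscle gate markers, none of them a member, summed to 259 to 424 CPM in fibroblasts, 82.6 to 284 in macrophages and 835 to 1919 in endothelial cells, against 7231 to 8385 in smooth muscle. In macrophages their sum was, like Acta2, highest in flox 1 and lowest in knockout 4. In fibroblasts it was highest in flox 1 but lowest in knockout 2 (259), and in endothelial cells it was highest in knockout 1 (1919), where Acta2 was near its lowest (156). At least 18 of the 20 were detected in fibroblasts of every library, at least 14 in macrophages and at least 12 in endothelial cells. How much of the trace is free RNA, how much is cells caught together and how much is the cells' own expression was not tested.

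Myh11, whose protein defines smooth muscle, served as the measure of background RNA. A member was set against it by dividing its share of the smooth muscle level by that of Myh11 in the same library and class. In fibroblasts 14 of 31 members exceeded Myh11 more than 3-fold in all 7 libraries, and 8 did so in no library (Acta2, Actg2, Tagln, Myh11 itself, Mylk, Mylk4, Cnn1 and Tpm2). In endothelial cells 14 exceeded it in all libraries and 6 in none (Actg2, Myh11, Myl9, Cnn1, Tpm2 and Sh3bgr). The endothelial ratios rest on few counts: the lowest library value was 5 UMIs for Myh11 and 0 for Actg2 and Cnn1. A member with 0 UMIs cannot exceed the measure. In macrophages 7 exceeded it in all libraries and 13 in none. Actg2, Cnn1 and Tpm2 are common to the 3 sets that never exceeded the measure, along with Myh11, whose own ratio is 1 by definition.

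The members above the Myh11 measure included cytoskeletal genes, phosphatase genes and both transcription regulators. That measure assumes that background RNA has the make-up of whole smooth muscle cells. In low-count, nucleus-like barcodes (described below) Myocd averaged 641 CPM over 6 libraries, against 142 in smooth muscle cells. Vcl averaged 1644 there against 530, but Myh11 2027 against 4408. Whether such RNA adds to the values given here was not tested. Talin 1 (Tln1), which links integrins to actin, stood at 81.9% to 109% of its smooth muscle level in macrophages, with 370 to 569 CPM there. Srf stood at 80.2% to 94.9% in fibroblasts. Myocd had a median of 4.48% of its smooth muscle level in fibroblasts and 7.65% in macrophages, more than 3-fold above Myh11 in all 7 libraries of both classes. Vinculin (Vcl), which joins actin to adhesion sites, had a median of 38.9% in endothelial cells, 23.3% in fibroblasts and 14.4% in macrophages. Myl6, the light chain shared with non-muscle myosin, had medians of 18.4%, 12.2% and 10.1% in the same order, and the phosphatase targeting subunit Ppp1r12a had 18.1%, 13.0% and 18.4%.

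Other members stood well above the trace in some classes and close to it in others. Pdlim3 stood at 16.9% to 25.2% of its smooth muscle level in endothelial cells (51.1 to 75.6 CPM), but at medians of 2.46% in fibroblasts and 1.48% in macrophages. Synm, the intermediate filament protein synemin, stood at 20.3% to 35.0% in fibroblasts and at a median of 2.13% in macrophages. Caldesmon (Cald1), an actin- and myosin-binding protein, stood at 11.0% to 13.9% in fibroblasts, against a median of 1.26% in macrophages. For these genes the ranges over 7 libraries in the named class did not meet those of macrophages, the class with the lowest level. How many of all genes separate these classes in this way was not counted, so the separation is a description only. Synm overlaps Ttc23 and Vcl overlaps Ap3m1 on the opposite strand, and the labels do not say whether the counting used strand.

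The level of the trace was set against the amount of smooth muscle RNA in the library, which made 4.90% to 42.8% of the UMIs of kept cells. Over 7 libraries Tagln in fibroblasts gave the closest relation (Spearman's rho 0.82, exact permutation p 0.0341, adjusted p 0.149 over 9 relations; Pearson's r 0.62, exact permutation p 0.133, adjusted p 0.586). Without knockout 3 and knockout 4, the libraries farthest from the median share, r was 0.73. Acta2 in fibroblasts and in macrophages and Myh11 in fibroblasts each gave rho 0.75 (exact permutation p 0.0663, adjusted p 0.149), with r 0.29, 0.25 and 0.40. Without the same 2 libraries these r were 0.37, 0.24 and 0.26, and r turned negative for Acta2 (−0.15) and Tagln (−0.15) in endothelial cells and for Myh11 in macrophages (−0.03). None of the 9 relations passed the adjustment by either measure. The library with the highest trace, flox 1, was not the one with the largest smooth muscle share, which was knockout 3.

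**Figure D2:**
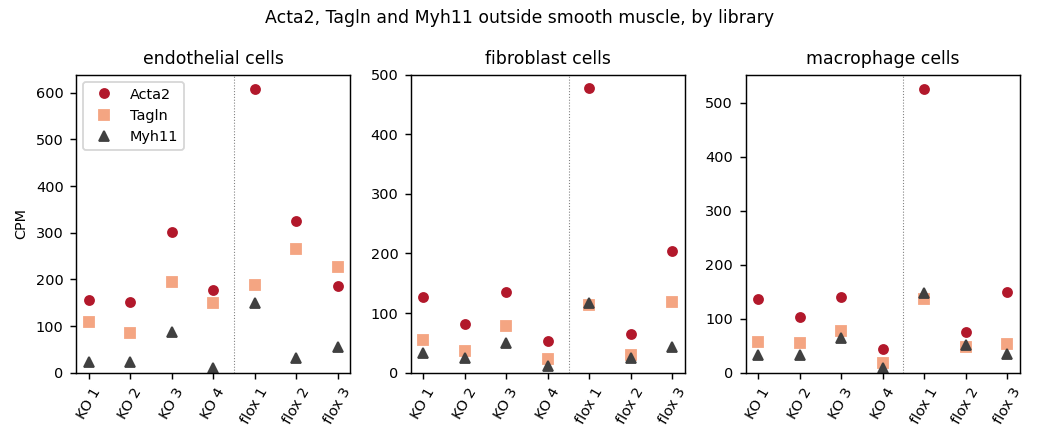
Acta2, Tagln and Myh11 in endothelial, fibroblast and macrophage cells, in CPM (y axes) for each library (x axes), with the 4 knockout (KO) libraries left of the dotted line and the 3 flox libraries right of it. Flox 1 holds the highest Acta2 value in each class (609, 477 and 526) and knockout 4 the lowest in fibroblasts and macrophages (53.6 and 43.7).

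The genotype comparison asks whether deletion of Slc38a2 in the endothelium changes contractile genes in the neighbouring smooth muscle. No member passed the test there. Of 31 members 0 were called at an adjusted p under 0.05, against 0 of 12861 genes tested (0%), and 612 genes but 0 members had an unadjusted p under 0.05. The members' median log2 fold change was 0.04, with 19 positive and 12 negative, and −0.01 over all genes tested. This lean depended on the processing, with 11 positive and 20 negative on total UMIs (median −0.04) and 10 positive and 21 negative with a stricter cell filter (median −0.08). It also depended on the libraries, with 23 positive and 8 negative without knockout 4 (median 0.08). Leaving out knockout 1 gave 14 positive and 17 negative (median −0.01). The lowest adjusted p of a member was 0.937.

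Acta2 gave a log2 fold change of 0.19 (SE 0.19), Tagln 0.19 (SE 0.16), Myh11 0.04 (SE 0.15), Myl9 0.04 (SE 0.15) and Cnn1 −0.08 (SE 0.15). Mylk gave −0.13 (SE 0.15), Synpo2 −0.12 (SE 0.16) and Srf 0.08 (SE 0.13). The values farthest from 0 were −0.40 (SE 0.24) for Myocd, −0.37 (SE 0.17) for Lmod1 and 0.33 (SE 0.15) for Actg2. Acta2 and Actg2 encode near-identical proteins, and whether any reads were split between the 2 genes was not tested. In simulated libraries with the same means and spread, 62.9% of genes changed 2-fold and 95% of genes changed 4-fold were called.

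Of the 32 other genes of the contraction pathway (RhoA and its kinases, calmodulins, non-muscle actins and myosins, focal adhesion proteins), 0 were called, with 16 positive and 16 negative. Smooth muscle made up 29.9%, 27.5%, 43.0% and 5.01% of kept cells in knockout 1 to 4, against 27.7%, 21.6% and 37.8% in flox 1 to 3. The means were 26.4% ± 15.8 (SD, n = 4) and 29.0% ± 8.20 (SD, n = 3), and the difference of −2.65 percentage points had an exact two-sided permutation p of 0.857. It turned positive without knockout 4 (4.46 points) or without flox 3 (1.74 points). The yield of tissue digestion, which can set such shares, was not measured.

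Outside smooth muscle most members had negative fold changes, again without a call. In macrophages 23 of the 26 members that passed the filter on low counts were lower in the knockouts (median log2 fold change −0.64 against 0.00 over all genes), and 0 were called against 0 of 10551 genes (0%; 713 genes and 5 members with an unadjusted p under 0.05). In fibroblasts 29 of 31 were lower, with a median of −0.48 against −0.01, and 0 were called against 0 of 15338 genes (0%; 705 genes and 7 members unadjusted). In endothelial cells 19 of the 23 that passed the filter were lower, with a median of −0.39 against −0.01, and 0 were called against 0 of 8159 genes (0%; 523 genes and 4 members unadjusted). Acta2 gave −1.22 (SE 0.56) in macrophages, −1.26 (SE 0.54) in fibroblasts and −0.84 (SE 0.35) in endothelial cells, with adjusted p of 0.725, 0.947 and 0.757.

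Without flox 1 the Acta2 log2 fold change was −0.10 in macrophages, −0.46 in fibroblasts and −0.33 in endothelial cells. The members' median was then −0.10 in macrophages (19 of 29 negative), −0.21 in fibroblasts (26 of 31 negative) and −0.12 in endothelial cells (17 of 23 negative). Leaving out knockout 4 gave medians of −0.56, −0.31 and −0.16 in the same order. Leaving out flox 2 gave −0.97, −0.73 and −0.44. The members share the same libraries and the same trace, so their common direction is not 31 separate observations. Whether genotype acted differently in endothelial cells than in smooth muscle was also tested directly: 0 members were called, against 1 of 11444 genes (0.00874%), and Acta2 gave −0.95 (SE 0.40, adjusted p 1). Without the filter on low counts 1 member, Myl9, was called lower in endothelial cells of the knockouts. With the filter its log2 fold change was −1.44 (SE 0.52, adjusted p 0.757). Myl9 had 14.2, 9.50, 39.3 and 14.5 CPM in endothelial cells of knockout 1 to 4, against 94.2, 26.6 and 63.2 in flox 1 to 3, and the groups overlapped through knockout 3 and flox 2.

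**Figure D3:**
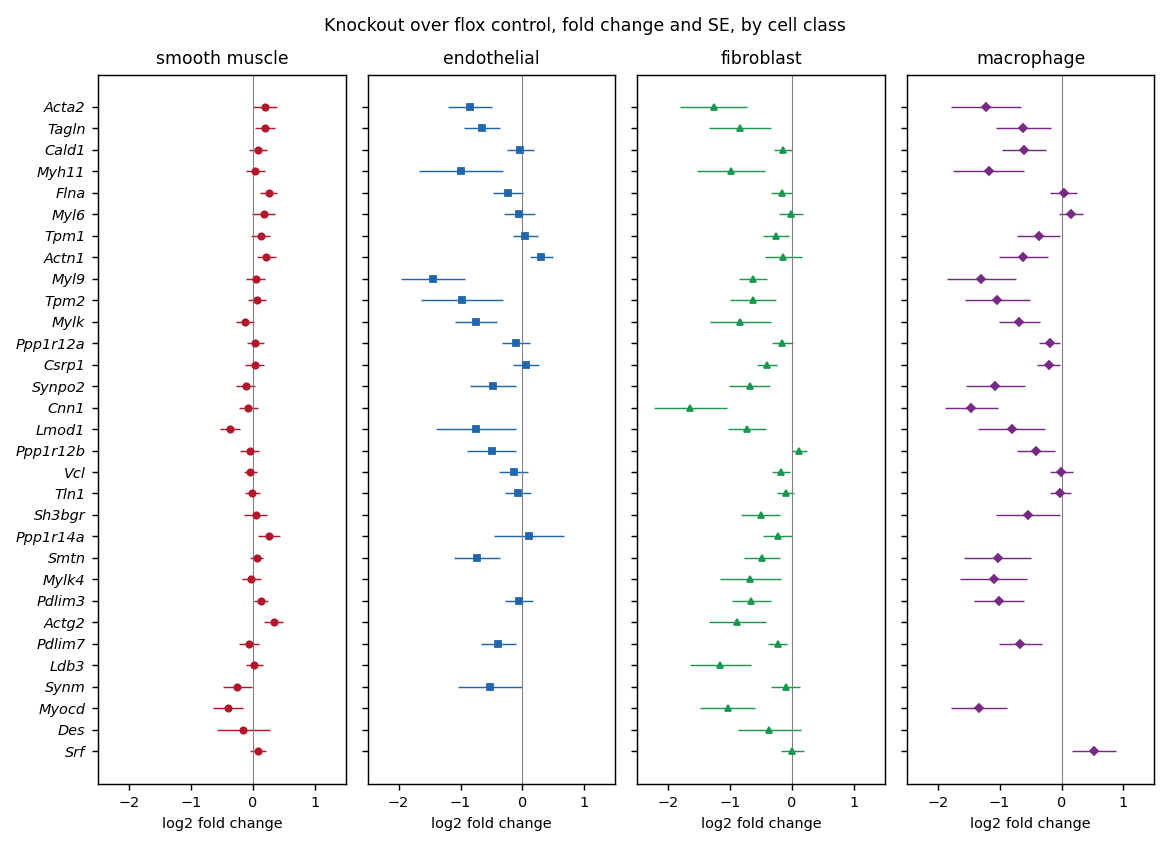
Log2 fold change of each member, knockout over flox control (x axes, points with SE bars), in 1 panel for each of the 4 cell classes, with rows for the members that passed the filter on low counts. In smooth muscle the points lie on both sides of 0 (19 positive, 12 negative), whereas 29 of 31 in fibroblasts and 23 of 26 in macrophages are negative; no point is past the adjusted threshold.

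Within smooth muscle, cells that express Rgs5 were compared with cells that do not, in the same libraries. Rgs5 is a regulator of G-protein signalling known from pericytes and arterial smooth muscle. Cells with at least 2 Rgs5 UMIs numbered 2375, 1455, 3251 and 47 in knockout 1 to 4 and 2303, 1364 and 1089 in flox 1 to 3, and cells with 0 Rgs5 UMIs numbered 437, 1041, 1412 and 290 and 557, 883 and 795. After thinning each cell to 2000 UMIs, 8.93% of cells were positive in knockout 4, against 45.3% to 72.0% in the other libraries; unthinned, the shares were 13.0% and 52.6% to 79.8%. Of fibroblasts, which should lack the gene, 17.1% had at least 2 Rgs5 UMIs in flox 1 and 0.212% to 4.19% elsewhere, at median depths of 3924 to 6669 UMIs, against 2623 to 5342 in smooth muscle.

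Of 31 members 3 passed the test, and so did 950 of all 12124 genes (7.84%; 3.04% higher and 4.79% lower). Without knockout 4 there were 5 members (3 higher, 2 lower) among 905 genes. The 31 genes took 5.53% to 7.23% of UMIs in Rgs5-positive cells and 5.47% to 6.79% in Rgs5-negative cells. Acta2, Tagln and Myh11 gave log2 fold changes of −0.01 (SE 0.04), 0.00 (SE 0.04) and 0.02 (SE 0.04). The member median was 0.01, with 17 positive and 14 negative, against −0.01 over all genes. With the cells thinned to equal depth the member median was −0.05, with 7 positive and 24 negative, and 2 were called higher and 2 lower.

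Desmin and its partner synemin were higher and Mylk4 was lower in Rgs5-positive cells. Des had 104.6, 48.2, 26.2 and 18.0 CPM in Rgs5-positive cells of knockout 1 to 4 and 68.1, 50.7 and 75.6 in those of flox 1 to 3, against 38.8, 23.3, 23.3 and 22.0 and 44.8, 35.4 and 24.8 in Rgs5-negative cells. It was higher in 6 of 7 libraries, the exception being knockout 4 (log2 fold change 0.84, SE 0.13, adjusted p 0.000138, edgeR). Synm had 200, 154, 126 and 54.0 and 255, 169 and 154 CPM in Rgs5-positive cells, against 176, 110, 116 and 107 and 167, 150 and 104 in Rgs5-negative cells, again higher in 6 of 7 libraries (0.32, SE 0.07, adjusted p 0.00515). Mylk4, a member of the myosin light chain kinase family, had 299, 276, 398 and 234 and 372, 322 and 281 CPM in Rgs5-positive cells, against 284, 398, 464 and 249 and 454, 356 and 390 in Rgs5-negative cells, lower in 6 of 7 (−0.25, SE 0.06, adjusted p 0.00815). Des and Mylk4 were also called with the cells thinned to equal depth (0.92 and −0.40), as was Synm (0.56). Mylk4 was no longer called without knockout 2 (−0.19, adjusted p 0.0594) or without flox 3 (−0.21, adjusted p 0.0536). Synm was not called with DESeq2 (0.29, adjusted p 0.0866). A stricter cell filter of at most 10% mitochondrial UMIs, below the smooth muscle median of 15.2%, left only 24 to 812 smooth muscle cells per library and 6 libraries to test. Under it Des alone was called, and Synm stood at −0.06.

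Genes of the other lists also differed. Of 8 early response genes 5 were lower in Rgs5-positive cells and 0 higher: Atf3 (−0.56), Egr1 (−0.43), Fosb (−0.50), Junb (−0.30) and Nr4a1 (−0.30), where 4.79% of all genes were lower. Of these, 3 were called after thinning and 0 under the stricter cell filter. Of 12 genes associated with modulated smooth muscle, 11 passed the filter on low counts, 6 were lower, among them the galectin gene Lgals3 (−0.84), S100a4 (−0.82) and Klf4 (−0.49), and fibronectin (Fn1) was higher (0.93). Of the 32 pathway genes 1 was higher, the non-muscle myosin Myh10 (0.26), and 5 were lower, namely Cav1 (−0.31), Filip1l (−0.25), Sorbs2 (−0.43), Tpm3 (−0.15) and Tpm4 (−0.24). Rgs5-positive cells had a median of 4656.5 UMIs and Rgs5-negative cells 3945, with 15.2% mitochondrial UMIs in both.

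Smooth muscle cells that also carried at least 2 of 13 chondrocyte markers had lower levels of most contractile genes than smooth muscle cells with none. The markers that carried the state were Sox9 (787 UMIs in all), Acan (694), Comp (472) and Hapln1 (337), while the cartilage genes Col2a1 (3 UMIs), Cnmd, Matn1 and Col9a2 (0 each) were all but absent. The 13 markers are not particular to smooth muscle here. They summed to 201 to 375 CPM in fibroblasts, against 65.9 to 127 in smooth muscle cells as a whole. Sox9 and Comp were treated as shared with fibroblasts in an alternative rule given below. There were 691 such cells, 95, 71, 259 and 19 in knockout 1 to 4 and 102, 90 and 55 in flox 1 to 3; knockout 4, with fewer than 20, was left out of the test. Of 31 members 20 were lower and 0 higher, against 306 of 11855 genes lower (2.58%) and 388 higher (3.27%), or 5.85% in either direction. All 31 log2 fold changes were negative, with a median of −0.22 against −0.01 over all genes; with total UMIs in place of TMM scaling 28 of 31 were negative and 16 were called lower. In the 6 tested libraries the 31 genes took 4.98% to 6.92% of UMIs in the cells with the markers, against 5.96% to 7.25% in the cells without. In knockout 4 the shares were 5.64% and 5.65%.

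Mylk4 and the phosphatase inhibitor Ppp1r14a, also known as CPI-17, had the largest differences among the members called. Mylk4 had 264, 241 and 296 CPM in marker-bearing cells of knockout 1 to 3 and 311, 181 and 190 in those of flox 1 to 3, against 312, 354 and 448 and 403, 369 and 342 in cells without markers (log2 fold change −0.63, SE 0.07, adjusted p 3.03e-09, edgeR). Ppp1r14a had 428, 265 and 257 and 245, 272 and 284 CPM in marker-bearing cells, against 538, 403 and 351 and 320, 369 and 402 in cells without (−0.50, SE 0.06, adjusted p 3.3e-08). Both were lower in 6 of 6 libraries.

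The filament genes followed with smaller differences. Acta2 had 16170, 8869 and 8609 and 12822, 8160 and 10634 CPM in marker-bearing cells, against 16716, 13208 and 11252 and 13492, 10544 and 12285 in cells without markers (−0.35, SE 0.06, adjusted p 6.07e-06). Tagln had 8664, 5485 and 6270 and 6071, 5725 and 6183 CPM in marker-bearing cells, against 9012, 7613 and 7910 and 6568, 7091 and 7903 in cells without (−0.34, SE 0.05, adjusted p 4.54e-06). Each was lower in 6 of 6 libraries, by little in knockout 1 and flox 1. Of the others called, tropomyosin 1 (Tpm1) gave −0.37, Myocd −0.35, Synm −0.34, Myl9 −0.31, Cnn1 −0.30, Synpo2 −0.29 and Myh11 −0.27. Myocd was no longer called without flox 2 (−0.26, adjusted p 0.109). Not called were 11 members: Actg2, Mylk, Smtn, Lmod1, Des, Vcl, Tln1, Srf, Pdlim3, Pdlim7 and Ldb3, of which Mylk (−0.16, adjusted p 0.058) and Lmod1 (−0.17, adjusted p 0.0942) were nearest.

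**Figure D4:**
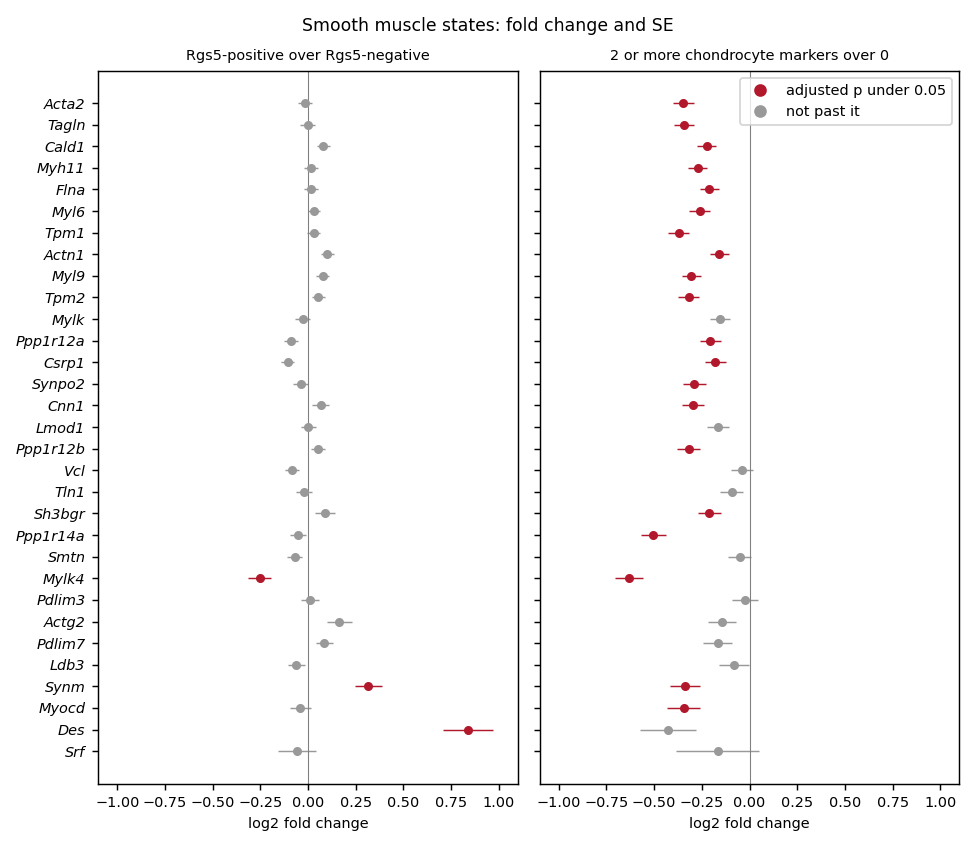
Log2 fold change of each member (x axes, points with SE bars, red where the adjusted p is under 0.05) for Rgs5-positive over Rgs5-negative smooth muscle cells and for smooth muscle cells with at least 2 chondrocyte markers over those with none. In the Rgs5 comparison 3 members are red and most lie near 0, whereas in the chondrocyte marker comparison all 31 are below 0 and 20 are red.

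The same cells had higher levels of other programmes. Of the 11 tested genes associated with modulated smooth muscle 7 were higher: Vcam1 (log2 fold change 1.65), Lum (1.39), Tnfrsf11b (0.88), Lgals3 (0.83), Klf4 (0.75), S100a4 (0.75) and Mgp (0.36), while Fn1 was lower (−0.20). No gene of this list was called lower on total UMIs, with DESeq2, with 1 marker other than Sox9 and Comp, or without knockout 2, flox 2 or flox 3. Lum is also a fibroblast marker. All 8 early response genes were higher, from 0.25 for Nr4a1 to 0.55 for Ier2; 4 of them were called when only cells of 4000 to 8000 UMIs were compared, and 0 when the state was defined by 1 chondrocyte marker other than Sox9 and Comp. Of the 32 pathway genes 4 were lower, Prkg1 (−0.29), Rock1 (−0.25), Nexn (−0.23) and Dstn (−0.18), and 0 were higher. The direction depended on the setting: 3 were higher and 3 lower on total UMIs, 4 higher and 1 lower with 1 marker other than Sox9 and Comp, and 0 higher and 1 lower at 4000 to 8000 UMIs.

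Several measurements moved with this state. Marker-bearing cells had a median of 6411 UMIs, against 4132.5 in cells without markers, and a deeper cell has more chances to show 2 markers. In cells of 4000 to 8000 UMIs 16 members were lower, 15 of them the same as above. With 1 marker other than Sox9 and Comp as the rule 15 were lower, 14 of them the same, but Myocd was then at −0.05 (adjusted p 0.736). The 13 fibroblast markers, 12 or 13 of them detected, summed to 3319 to 5776 CPM in marker-bearing cells (median 4929). The sums were 3492 to 5489 in cells without (median 4217) and 38699 to 44515 in fibroblasts. These ranges and medians include the library that the test left out. Whether the sums differed within libraries was not tested. The part of shared capture with other cells in the result was not tested. Under the stricter cell filter only 2 libraries qualified, and 2 members were called.

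A further set of 1626 barcodes had fewer than 1000 UMIs and carried transcripts such as Dmd, Ctnna3 and Kcnma1, long genes whose unspliced RNA is rich in nuclei. They were drawn from barcodes inside the smooth muscle gate and from barcodes assigned to no class. Inside the gate lay 27, 21, 124 and 2 in knockout 1 to 4 and 202, 82 and 16 in flox 1 to 3. The whole set numbered 113, 66, 433 and 10 in knockout 1 to 4 and 672, 295 and 37 in flox 1 to 3, so most had no class. Their median was 621 UMIs with 0.995% from mitochondrial genes, against 4450 UMIs and 15.2% in smooth muscle cells. Contractile genes took 1.96% to 3.23% of their UMIs, against 5.44% to 7.17% in smooth muscle cells. They are called nucleus-like for these features only.

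In the nucleus-like barcodes most contractile mRNAs were low, and Myocd and Vcl were high. Over 6 libraries, knockout 4 being left out with 10 barcodes, 27 of 31 members were lower and 2 higher, against 37.6% of 13093 genes lower and 24.6% higher. So many genes differed that the result depends on the scaling: without TMM factors, on total UMIs, the median over all genes was shifted by 0.83 to 0.42. On that scale 23 members were lower and 3 higher. Under both scalings 23 were lower and 2 higher, and these are the ones described. When only nucleus-like barcodes inside the smooth muscle gate were used, in 5 libraries, 25 members were lower and 1 higher, since Vcl was not called (0.42, adjusted p 0.196). Under the stricter cell filter, with 2 libraries, 18 were lower and 0 higher.

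Acta2 had 1704, 2560 and 1789 CPM in nucleus-like barcodes of knockout 1 to 3 and 2078, 1531 and 3611 in those of flox 1 to 3, all below the 10221 to 16525 of smooth muscle cells (log2 fold change −3.55, SE 0.15; −2.56 on total UMIs). Tagln (−3.83; −2.86 on total UMIs), Sh3bgr (−3.86; −3.02), Ppp1r14a (−3.77; −2.93), Myl9 (−3.68; −2.73), Csrp1 (−3.68; −2.77) and Cnn1 (−3.60; −2.72) were lowest. Myh11 differed less (−2.11; −1.13).

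Myocd had 859, 681 and 482 CPM in nucleus-like barcodes of knockout 1 to 3 and 768, 734 and 321 in those of flox 1 to 3, against 131, 124 and 124 and 183, 184 and 103 in smooth muscle cells (log2 fold change 1.23, SE 0.20; 2.17 on total UMIs). Vcl had 1563, 1456 and 1663 and 1667, 1266 and 2247 CPM, against 555, 508 and 475 and 590, 564 and 489 in smooth muscle cells (0.63, SE 0.17; 1.60 on total UMIs). For both genes the nucleus-like values of all 6 libraries lay above all smooth muscle values. The share of all genes that separate in this way, or downwards as Acta2 did, was not counted. Of all genes tested, 24.6% were called higher and 37.6% lower. Synpo2, Ppp1r12a, Ppp1r12b, Pdlim3, Pdlim7 and Ldb3 were not called in 1 direction under both scalings, and Ppp1r12a, Ppp1r12b and Pdlim7 also changed sign, so no direction is given for them. The fibroblast marker sum was 3552 to 5054 CPM in the nucleus-like barcodes, inside the 3460 to 5563 of smooth muscle cells. The endothelial marker sum was 305 to 1148 (median 609), against 168 to 234 (median 197) in smooth muscle cells. These ranges include the library left out of the test, which held few such barcodes. By the endothelial sum alone, the set may include barcodes other than smooth muscle.

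**Figure D5:**
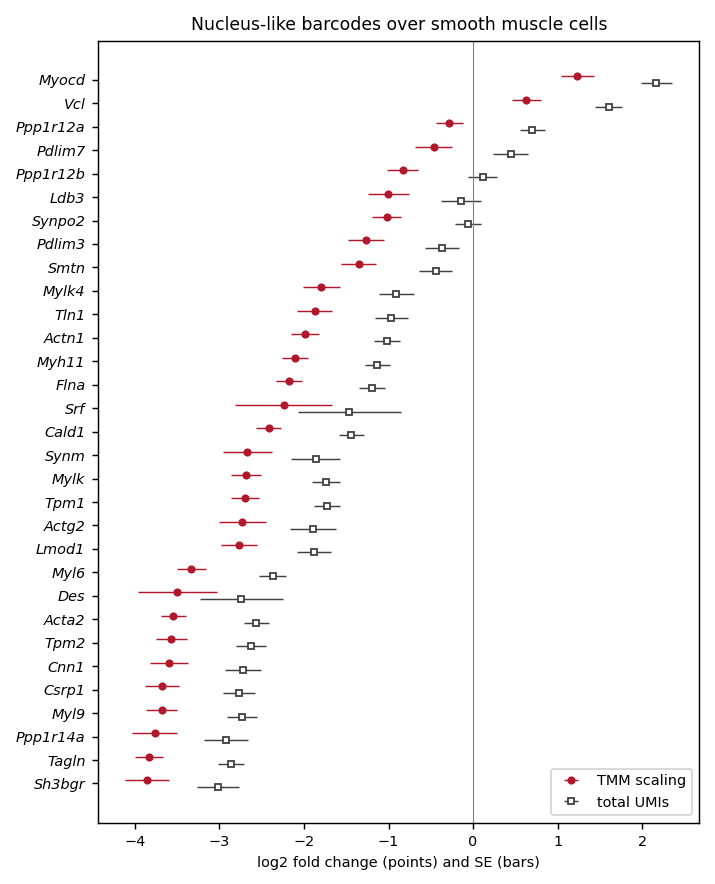
Log2 fold change of each member, nucleus-like barcodes over smooth muscle cells (x axis), with TMM scaling and with total UMIs as 2 sets of points and SE bars. Myocd (1.23 and 2.17) and Vcl (0.63 and 1.60) lie above 0 under both scalings, and Acta2 (−3.55 and −2.56) and Tagln (−3.83 and −2.86) far below.

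Across the 28 sums of 4 cell classes in 7 libraries, the genes outside the list whose level followed the mean of Acta2, Tagln and Myh11 most closely were Sost (Spearman's rho 0.94), Rgs5 (0.93), Pcp4l1 (0.93), Dmd (0.91), Thsd4 (0.90), Nav2 (0.90), Npnt (0.90), Prkg1 (0.89), Mcam (0.88) and Susd5 (0.88). The 28 points share libraries, depth and background RNA, and Pcp4l1, Npnt and Susd5 were among the markers used to class smooth muscle, so the order is a description. Sost, which encodes the Wnt inhibitor sclerostin, had a median of 944 CPM in smooth muscle, 26.6 in endothelial cells, 7.75 in fibroblasts and 11.1 in macrophages. By the same measure Synpo2 (0.91), Mylk (0.89) and Mylk4 (0.86) were the members nearest to Acta2, Tagln and Myh11 themselves, and Tln1 (0.44) and Srf (0.36) the farthest.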

How the data were processed

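The deposited matrices hold raw UMI counts per gene and barcode of 7 mouse aorta libraries made with the BD Rhapsody single-cell system. The submitters' processing notes list Seurat, STARsolo 2.7.10a, CASAVA 1.8 and build mm10; whether counting used strand is not given in the sources used here. Of the gene identifiers 31107 of 31253 (99.5%) were matched to GENCODE vM21. Barcodes with at least 200 genes and at most 25% mitochondrial UMIs were kept, and doublets called by Scrublet in scanpy 1.11.5 (0.869% to 2.07% per library) were removed. Cells were classed by marker lists without members, needing at least 3 markers and a score of at least 0.2, with the next class at no more than 0.5 of the top score; the numbers of this rule were set after the data were seen. UMI counts were summed per library and class, from at least 20 cells, and tested with edgeR 4.0.16 (R 4.3.3; quasi-likelihood, TMM, filterByExpr, Benjamini-Hochberg adjustment over all genes tested, threshold 0.05), with the library as a block for states within libraries. The classed sums held 1517607 to 29169772 UMIs for smooth muscle, 211518 to 1858418 for endothelial cells, 12839821 to 40889592 for fibroblasts and 633232 to 4257810 for macrophages. Replicate numbers were not taken to pair libraries. Alternatives were other scalings, DESeq2 1.42.0, filters, gates, thinning to 2000 UMIs and leaving out each library. The script was tested on simulated data. The members and lists were chosen with earlier results of these data known. Genes named with values are 10 fixed members and, per comparison, up to 6 members past the threshold in each direction.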

Additional observations from a re-analysis of the deposited data

Results flagged for a closer look

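In 42 groups of 4 libraries, 2 held a value far from the other 3 by Dixon's criterion, about what chance gives (1 in 20 groups). Myocd in smooth muscle of knockout 4 had 61.9 CPM, against 124 to 131 in the other knockouts. Myl9 in endothelial cells of knockout 3 had 39.3 CPM, against 9.50 to 14.5 in the other knockouts.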

How the results depend on the processing

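The genotype counts of 0 genes became 7 in smooth muscle, 141 in endothelial cells (with 1 member, Myl9) and 5 in macrophages without the filter on low counts. With DESeq2 they were 8 in smooth muscle, 1 in endothelial cells, 7 in fibroblasts and 6 in macrophages. Same-numbered libraries correlated at 0.362, 0.349 and −0.00156, and other pairs at −0.354 to 0.358, the highest being knockout 4 with flox 3. The numbers were not taken as pairs, and these values cannot decide whether libraries were paired. With the replicate block the counts were 8, 2, 7 and 1 in the same order of cell classes. Without the block in the same libraries they were 3 in smooth muscle, 5 in fibroblasts and 1 in macrophages. Leaving out 1 library gave 0 to 3 genes in smooth muscle and 0 to 5 in fibroblasts, both highest without knockout 4, 0 in endothelial cells and 0 to 1 in macrophages. For the endothelial minus smooth muscle difference the count was 46 (with 1 member) without the filter, 0 with the stricter cell filter or the contractile gate, and 0 to 4 on leaving out 1 library. Rgs5-positive cells had 5 members called on total UMIs, without the filter or with DESeq2, 1 with the stricter cell filter (308 genes), and 2 to 5 members and 699 to 919 genes on leaving out 1 library (905 genes and 5 members without knockout 4); with DESeq2 Synm was among the calls lost. Cells with chondrocyte markers had 72 genes and 2 members with the stricter filter, 436 genes with DESeq2, 271 genes at 4000 to 8000 UMIs, and 424 (without knockout 3) to 644 genes and 15 to 20 members on leaving out 1 library; on total UMIs 529 genes were higher and 173 lower, against 388 and 306. The nucleus-like count was 501 genes and 18 members with the stricter filter, 4447 genes (1 member higher, 25 lower) inside the smooth muscle gate, and 6885 to 8016 genes and 29 to 30 members on leaving out 1 library. Signs turned with the stricter filter for Synm in the Rgs5 comparison (−0.059), Vcl in nucleus-like barcodes (−0.40) and Acta2 by genotype in smooth muscle (−0.060). The smooth muscle share difference ran from −8.19 to 4.46 points on leaving out 1 library, positive without knockout 4 (4.46) or flox 3 (1.74). Without cells that held 2 or more smooth muscle gate markers, the endothelial relations turned to rho −0.036 for Acta2 and rho −0.107 and r −0.106 for Tagln. The causes were not tested. In simulated data, 2-fold genotype changes were recovered for 14.7% of genes in endothelial cells and 62.9% in smooth muscle.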
